A study of Gallus gallus with 12 samples.

Results

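The hypoxia response was followed in 7 genes through an early step of egg formation in the laying hen. They were CA9, HIF1A, EPAS1, ARNT, EGLN3, HIF1AN and BNIP3, taken by symbol from a list of 10, and they stand among 12470 named genes in the table. The remaining 3 genes of the list, VHL, EGLN1 and ADM, were not analysed here. The list was selected on function and on measured differences between the stages compared here, so the stage differences of the 7 genes are given as a description, with no p-value.

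Follicle tissue came from the ovaries of 6 Gallus gallus hens aged 12 months. Every hen gave an F5 follicle, a yolk-filled follicle already in the ordered series that leads to ovulation, and a Pre-recruitment follicle, which had not yet entered that series. Messenger RNA was sequenced in the resulting 12 libraries, 6 of each stage, and libraries are named here by stage and bird number. The labels name no treatment or strain, and they call the samples follicle tissue without stating which layers were kept.

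Cells sense oxygen through enzymes that use it as a substrate. Prolyl hydroxylases such as EGLN3 mark the alpha subunits HIF1A and EPAS1 (also called HIF2A) for destruction through VHL, and the asparagine hydroxylase HIF1AN, also called FIH, blocks their access to coactivators. When oxygen is scarce the alpha subunits persist, pair with ARNT and switch on genes that include CA9, BNIP3 and EGLN3 itself. This control acts on protein, so the messenger RNA of an alpha subunit does not measure the activity of the pathway. In the ovarian follicle the granulosa layer has no blood vessels, whereas the theca around it is richly supplied with them.

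Between 28044247 and 40887647 counts fell on named genes in F5 libraries, and between 20628640 and 29082988 in Pre-recruitment libraries. Levels are CPM, counts set to a common library size after TMM scaling, which assumes that most genes do not differ. Changes are log2 differences of F5 against Pre-recruitment, so a positive value means higher in F5. The median gene changed by 0.02 on the log2 scale, and by -0.21 when libraries were scaled by their totals alone, so directions are relative to the typical gene. The quasi-likelihood test of edgeR was applied to 11195 genes with stage as its only term, so the follicles were not paired by bird. Of these genes 65.5% passed a Benjamini-Hochberg adjusted p of 0.05, 32.9% higher and 32.6% lower in F5. Libraries of 1 stage correlated at 0.973 to 0.99 on log2 CPM.

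Each of the 7 genes passed the filter on low counts and the threshold of that fit, HIF1A and EPAS1 on the higher side and the other 5 on the lower side. Their median log2 change was -0.40, beside 0.02 over all genes tested. With 65.5% of all genes called, and with the list selected on this contrast, nothing is read from the count. The ranges of CPM in the 2 stages did not overlap for any of the 7 genes, as for 43.5% of all genes tested.

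**Figure D1:**
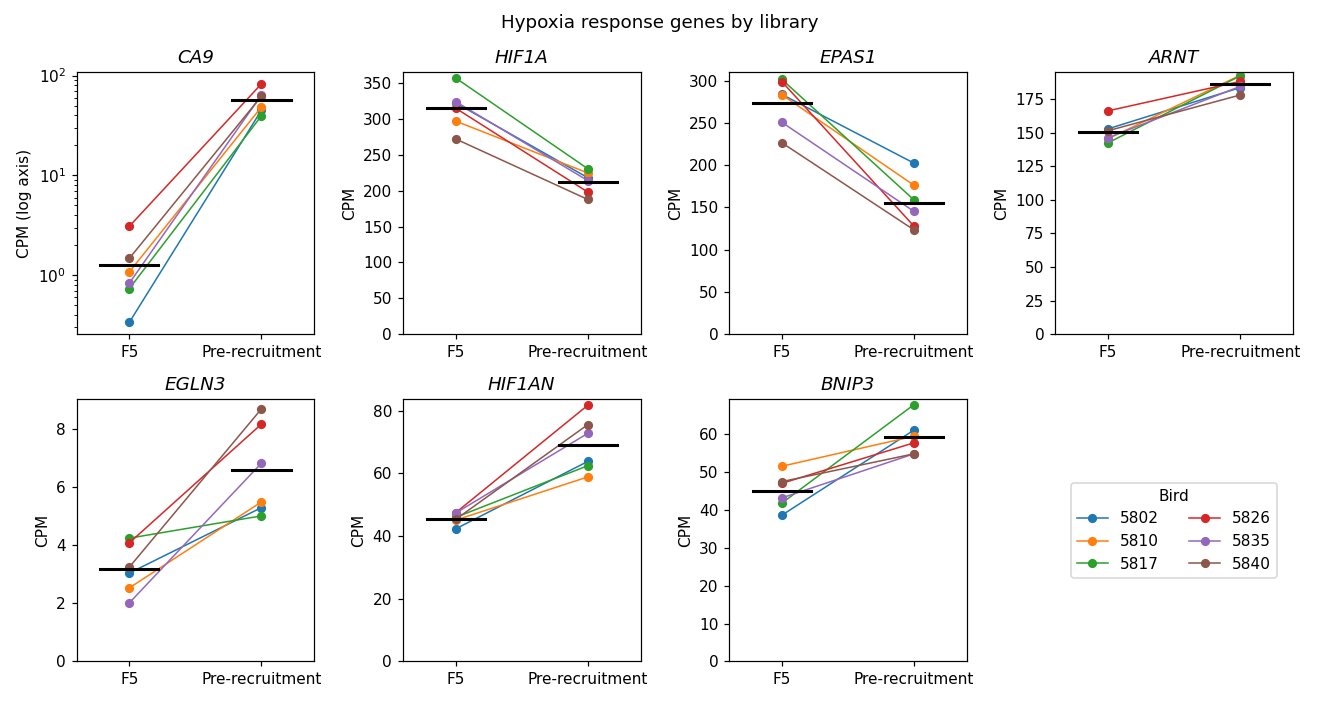
Level of each gene in CPM (vertical axis, logarithmic for CA9) in F5 and Pre-recruitment follicles, with a line joining the follicles of 1 bird and a black bar at the mean of each stage. HIF1A and EPAS1 were higher and the other 5 genes lower in F5 in 6 of 6 birds, and CA9 averaged 1.26 CPM in F5 against 57.0 CPM in Pre-recruitment follicles.

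The alpha subunits were both more abundant in F5 follicles. HIF1A, the broadly expressed subunit, had 272 to 357 CPM in F5 follicles with a median of 319, against 188 to 231 CPM in Pre-recruitment follicles with a median of 216. Every F5 library stood above every Pre-recruitment library, with bird 5817 highest and bird 5840 lowest in each stage. The log2 change was 0.57 (SE 0.07), or 1.48-fold, and ran from 0.40 to 0.67 within birds. EPAS1, a subunit best known in mammals from endothelial cells and from the control of erythropoietin, had 227 to 302 CPM in F5 follicles with a median of 284, against 123 to 202 CPM in Pre-recruitment follicles with a median of 152. The stages were again apart, and the spread among hens was wider before recruitment, with a coefficient of variation of 10.8% in F5 and 19.4% in Pre-recruitment follicles. Its log2 change was 0.82 (SE 0.12), or 1.76-fold, and ran from 0.49 in bird 5802 to 1.23 in bird 5826. By library totals alone the changes were smaller, 0.34 for HIF1A and 0.59 for EPAS1, and stayed positive.

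ARNT, the partner that both subunits need in order to bind DNA, had the smallest spread of the 7 genes among Pre-recruitment follicles. It measured 143 to 166 CPM in F5 follicles with a median of 149, against 178 to 193 CPM in Pre-recruitment follicles with a median of 186. Coefficients of variation were 5.65% in F5 and 3.03% in Pre-recruitment follicles. All F5 libraries lay below all Pre-recruitment libraries, and the log2 change was -0.31 (SE 0.05).

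Ratios of counts within a library do not depend on scaling, although their absolute size depends on the lengths of the transcripts. Subunit to partner ratios differed between the stages by more than the spread among hens. The HIF1A to ARNT ratio was 2.09 ± 0.251 in F5 follicles and 1.14 ± 0.0659 in Pre-recruitment follicles (SD, n = 6 each). The EPAS1 to ARNT ratio was 1.82 ± 0.211 in F5 follicles and 0.834 ± 0.158 in Pre-recruitment follicles (SD, n = 6 each). Both were higher in F5 in 6 of 6 birds, without overlap. This follows from the differences given above, with HIF1A and EPAS1 higher and ARNT lower without overlap. The genes were selected on this contrast, so the 2 ratios are a description and no separate result. The EPAS1 to HIF1A ratio ran from 0.773 to 0.954 in F5 and from 0.645 to 0.928 in Pre-recruitment follicles, overlapped between the stages and was higher in F5 in 5 of 6 birds.

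**Figure D2:**
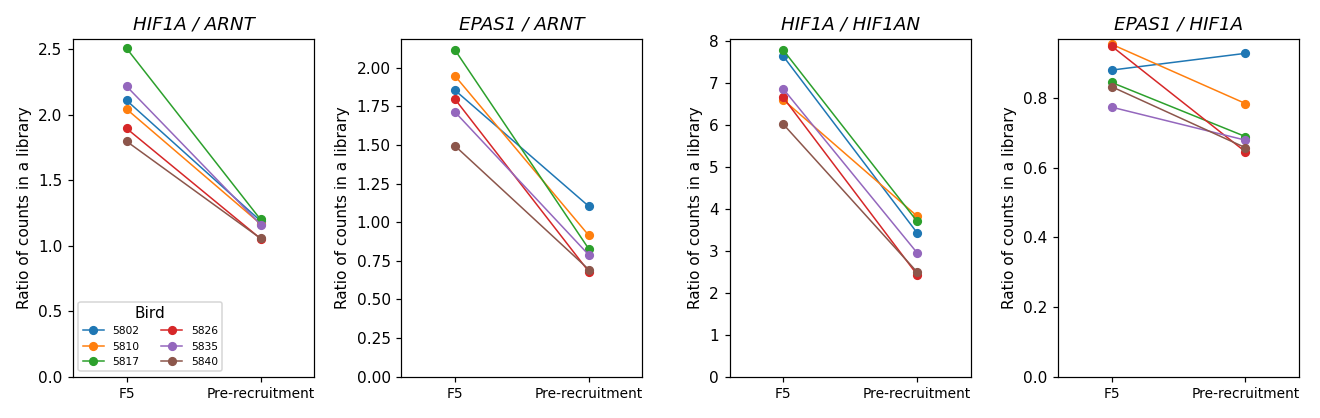
Ratios of counts within each library (vertical axis, from 0) for HIF1A to ARNT, EPAS1 to ARNT, HIF1A to HIF1AN and EPAS1 to HIF1A, with a line joining the F5 and Pre-recruitment follicles of 1 bird. The first 3 ratios were higher in F5 in 6 of 6 birds, and EPAS1 to HIF1A in 5 of 6. HIF1A and EPAS1 were higher and ARNT and HIF1AN lower in every bird, so the first 3 had to be higher.

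The 2 hydroxylases were lower in F5 follicles, where the alpha subunits were higher. HIF1AN had 42.3 to 47.4 CPM in F5 follicles with a median of 45.6, against 58.8 to 81.7 CPM in Pre-recruitment follicles with a median of 68.3. Hens were close to each other in F5, with a coefficient of variation of 4.14%, and farther apart in Pre-recruitment follicles at 12.8%. The log2 change of HIF1AN was -0.60 (SE 0.08), or 1.52-fold lower. Counted against HIF1AN, HIF1A stood at 6.92 ± 0.67 in F5 follicles and 3.13 ± 0.604 in Pre-recruitment follicles (SD, n = 6 each). This ratio too follows from the differences of its 2 genes and is no separate result.

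EGLN3, a prolyl hydroxylase whose gene is itself induced by hypoxia in mammals, rested on few counts, 75 to 127 per library in F5 and 147 to 248 in Pre-recruitment follicles. It had 2.02 to 4.25 CPM in F5 follicles with a median of 3.15, against 5.02 to 8.71 CPM in Pre-recruitment follicles with a median of 6.17. The stages did not overlap, but the difference varied between hens, from a log2 change of -0.24 in bird 5817 to -1.73 in bird 5835. The fitted log2 change was -1.04 (SE 0.21), or 2.06-fold lower.

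BNIP3, a receptor on the outer mitochondrial membrane that marks mitochondria for removal by autophagy, had 38.6 to 51.6 CPM in F5 follicles with a median of 45.1, against 54.8 to 67.8 CPM in Pre-recruitment follicles with a median of 58.6. Every F5 library was below every Pre-recruitment library. The log2 change was -0.40 (SE 0.08), or 1.32-fold lower. BNIP3L, its closest relative and also a mitophagy receptor, named after its values were seen, fell in the same direction to 154 ± 6.91 CPM in F5, against 182 ± 14.0 CPM in Pre-recruitment follicles (log2 change -0.24, edgeR adjusted p = 0.00262).

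CA9 differed by far more than the other 6 genes. It encodes a carbonic anhydrase on the cell surface, which converts carbon dioxide and water to bicarbonate and protons outside the cell, and in human tumours it is a widely used marker of hypoxia. CA9 had 0.339 to 3.09 CPM in F5 follicles with a median of 0.958, against 39.5 to 82.6 CPM in Pre-recruitment follicles with a median of 55.3. Raw counts were 9 to 84 per F5 library and 1198 to 2505 per Pre-recruitment library. The highest F5 library, from bird 5826, was far below the lowest Pre-recruitment library, from bird 5817. The fitted log2 change of -5.51 (SE 0.37), 45.6-fold lower, had rank 3 counted from the lowest of all genes tested. Within birds it ran from -6.79 in bird 5802 to -4.71 in bird 5826. The spread among hens was wide in F5, with a coefficient of variation of 77.3%, against 27.8% in Pre-recruitment follicles. Counted against EGLN3 in the same library, another target of the pathway in mammals, CA9 stood at 0.389 ± 0.23 in F5 follicles and 8.63 ± 1.05 in Pre-recruitment follicles (SD, n = 6 each).

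Oocyte and germ cell markers were lower in the same F5 libraries. In mixed tissue, a smaller share of a cell type in the sample and less RNA per cell cannot be told apart. Of 14 tested markers, 13 fell and DDX4 did not pass (edgeR's quasi-likelihood test), with a median log2 change of -2.36. Their summed level was 13.8 to 87.4 CPM in F5 libraries with a median of 45.6, against 311 to 544 CPM in Pre-recruitment libraries with a median of 371. Most of the sum came from ZP2, an egg coat gene, at 11.9 CPM in F5 and 196 CPM in Pre-recruitment follicles on average, and from BRDT, a germ cell bromodomain gene, at 14.8 CPM in F5 and 102 CPM in Pre-recruitment follicles. Bird 5826 had the highest sum and the highest CA9 in each stage. Bird 5802 had the lowest sum and the lowest CA9 in F5, and bird 5817 the lowest of both before recruitment. The order was not the same throughout either stage. In F5 bird 5835 had a sum of 16.3 CPM and CA9 at 0.835 CPM, and bird 5817 a sum of 45.0 CPM and CA9 at 0.736 CPM. Before recruitment bird 5840 had a sum of 490 CPM and CA9 at 62.2 CPM, and bird 5835 a sum of 412 CPM and CA9 at 63.9 CPM. CA9 counts equalled 1.64% to 5.12% of the summed oocyte marker counts in F5 libraries, against 12.7% to 15.5% in Pre-recruitment libraries, with medians of 2.82% in F5 and 14.4% in Pre-recruitment libraries. Relative to the summed markers CA9 was lower in F5 in 6 of 6 birds, with the Pre-recruitment median 5.11 times the F5 median, and without overlap. The sum of the lowest F5 library, from bird 5802, was mostly BRDT, at 9.70 of 13.8 CPM. Set against each of the 14 tested markers alone, CA9 was lower in F5 in 6 of 6 birds for 8 markers, in 5 birds for 4 and in 4 birds for 2. The last 2 were ZP2 and BMP15, an oocyte growth factor, relative to which CA9 was higher in F5 in birds 5802 and 5835. Counts were very low there, and the F5 library of bird 5802 had 9 of CA9, 13 of ZP2 and 1 of BMP15. Among Pre-recruitment libraries this share had a coefficient of variation of 9.33%, against 27.6% to 59.2% when CA9 was set against each of the other 8 lists of markers and handling genes. Among F5 libraries it was 41.8%, near the 44.5% for red cell markers, and 65.0% to 105% for the other 7 lists. CA9 was selected on this contrast, and its log2 change was below that of every tested marker, the lowest being ZP2 at -4.05. A lower level of CA9 relative to the markers was thus largely set in advance and is a description. The shares were computed after the values were seen, and the part of the oocyte in the CA9 difference was not tested further.

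**Figure D3:**
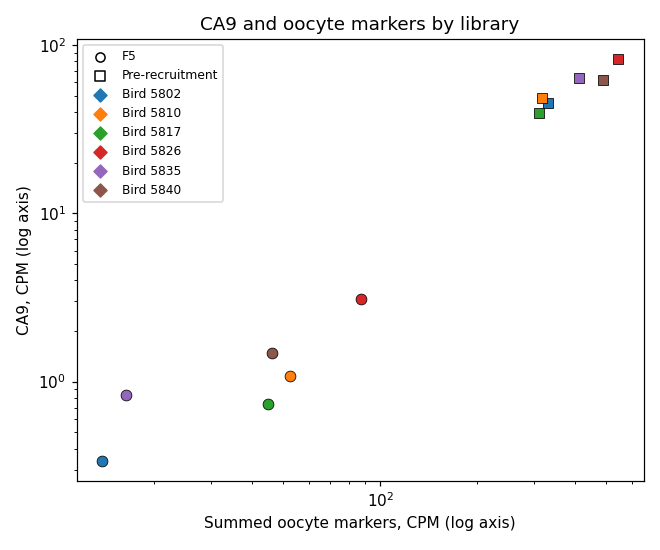
CA9 in CPM (vertical axis, logarithmic) against the summed CPM of the oocyte marker list (horizontal axis, logarithmic) in each library, circles for F5, squares for Pre-recruitment and a colour for each bird. F5 libraries lie at 13.8 to 87.4 CPM of markers and 0.339 to 3.09 CPM of CA9, and Pre-recruitment libraries at 311 to 544 CPM of markers and 39.5 to 82.6 CPM of CA9.

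Other tissue components also moved with the stage, and their counts are read beside 32.9% higher and 32.6% lower over all genes. Counts by library totals are read beside 2071 higher and 5200 lower over all genes with that scaling, or 28.5% higher among those called. All 11 smooth muscle markers rose (10 by library totals), with sums of 16610 to 33580 CPM in F5 and 4524 to 9926 CPM in Pre-recruitment libraries. Of 12 granulosa markers 7 fell and 1 rose (9 and 0 by library totals), and their sums were 1110 to 2272 CPM in F5 and 2715 to 3204 CPM in Pre-recruitment libraries. Of 12 endothelial markers 6 rose and 3 fell. By library totals 2 rose and 6 fell, or 25% higher among those called, near the 28.5% over all genes called. The endothelial sums were 823 to 905 CPM in F5 and 739 to 858 CPM in Pre-recruitment libraries, higher in F5 in 6 of 6 birds. Theca markers had 2 risers and 4 fallers of 9 (1 and 5 by library totals). The theca sums were 2992 to 4989 CPM in F5 and 3075 to 4496 CPM in Pre-recruitment libraries, higher in F5 in 5 of 6 birds. On average the largest part of them was CYP19A1, which did not pass. Immune markers had 1 riser and 0 fallers of 9 (1 and 2 by library totals). The immune sums were 487 to 694 CPM in F5 and 459 to 920 CPM in Pre-recruitment libraries, higher in F5 in 3 of 6 birds. Surface epithelium markers had 3 risers and 3 fallers of 7, with UPK3B at 0 in every library. Their sums were 1092 to 1518 CPM in F5 and 598 to 1029 CPM in Pre-recruitment libraries, higher in F5 in 6 of 6 birds. None of 4 tested red cell markers passed with edgeR, at an unadjusted p under 0.05 or with DESeq2, and their sums were 36.3 to 268 CPM in F5 and 72.0 to 183 CPM in Pre-recruitment libraries. Of 15 immediate early and heat shock genes, which can respond to handling, 6 rose and 2 fell. Their sums were 4217 to 7364 CPM in F5 and 3228 to 5024 CPM in Pre-recruitment libraries, higher in F5 in 6 of 6 birds. Most of the sum came from the heat shock gene HSPA8, at 4401 CPM in F5 and 2951 CPM in Pre-recruitment follicles on average. Among the immediate early genes EGR1, EGR2, EGR3 and ATF3 rose and FOSB fell. FOS, JUN, IER5, DUSP1, NR4A1 and NR4A3 did not pass. The part of these components in the differences of the 7 genes was not tested.

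The profile most like that of CA9 among hens was found by subtracting each stage mean from log2 CPM and correlating over the 12 libraries. The libraries differ in depth and tissue makeup, which all genes of a library share. Over 9491 genes whose log2 CPM averaged 2 or more, the 5 closest were NPC1 (r = 0.95), CCNJL (0.94), ZRANB1 (0.94), KLHL9 (0.94) and WNT6 (0.94). NPC1, which moves cholesterol out of lysosomes, followed CA9 within F5 (r = 0.96) and within Pre-recruitment libraries (r = 0.92), and was also lower in F5, at 150 ± 30.8 CPM against 1016 ± 122 CPM in Pre-recruitment follicles (SD, n = 6 each). WNT6, a secreted signalling ligand, had 2.43 ± 1.43 CPM in F5 and 69.7 ± 14.9 CPM in Pre-recruitment follicles. ZRANB1, a deubiquitinase, followed CA9 among hens while its own log2 change between the stages was only -0.22. These r values were the highest of many and carry no p-value.

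Whether a hen's level carried over from 1 follicle to the other was tested for the 7 genes, since this was not used to choose them. No relation passed over the 6 birds after adjustment for 7 genes. CA9 came closest, with r = 0.79 (exact two-sided permutation p = 0.0639, adjusted p = 0.447) and rho = 0.77 (exact permutation p = 0.103, adjusted p = 0.52). Without the 2 birds farthest from the median, 5817 and 5826, its r was 0.65. HIF1A followed with r = 0.72 (exact permutation p = 0.128, adjusted p = 0.447) and rho = 0.60 (exact permutation p = 0.242, adjusted p = 0.52), and its r was 0.37 without birds 5826 and 5840. Over the other 5 genes r ran from -0.39 for BNIP3 to 0.56 for HIF1AN, with exact permutation adjusted p-values from 0.609 to 0.964. Without the 2 birds farthest from the median their r ran from -0.89 for EGLN3, which stood at 0.04 over 6 birds, to 0.46 for HIF1AN, and EPAS1 went to -0.03 from 0.45.

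Genes around the 7 members were read from 6 lists. Beside regulators and targets of the pathway, these hold carbonic anhydrases and pH transporters, the adrenomedullin system and mitophagy genes. The lists came to 155 genes in all, of which 123 were tested apart from the members. Together 35 rose, 43 fell and 45 did not pass. Those that rose or fell were 28.5% and 35%, beside 32.9% and 32.6% over all genes, so the lists as a whole stood near the background. The lists were written with earlier results of these data known, so their shares and the p-values of genes named from them are a description. By library totals alone 25 rose and 64 fell, a split of 28.1% higher among those called, against 44.9% with TMM scaling. The same change of scaling moved the split over all genes called to 28.5% higher from 50.2%.

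Regulators of the alpha subunits changed in both directions. Of 19 tested, 4 rose and 6 fell, or 21.1% and 31.6% beside 32.9% and 32.6% over all genes. Their median log2 change was -0.03, and by library totals 2 rose and 10 fell. CUL2, the scaffold of the ubiquitin ligase that carries VHL, rose 1.51-fold, to 80.6 ± 4.99 CPM in F5 against 53.6 ± 2.15 CPM in Pre-recruitment follicles (SD, n = 6 each; edgeR adjusted p = 5.59e-07). The chaperone HSP90AB1 rose 1.66-fold (edgeR adjusted p = 1.61e-05). HIF3A, a related alpha subunit with forms that inhibit the pathway in mammals, fell 1.89-fold, to 5.67 ± 0.863 CPM in F5 against 10.7 ± 0.635 CPM in Pre-recruitment follicles (edgeR adjusted p = 6.12e-06). USP20, a deubiquitinase that stabilises HIF1A in human cells, fell 1.92-fold (edgeR adjusted p = 2.47e-05), and CITED2, which competes with the alpha subunits for coactivators, fell 1.59-fold (edgeR adjusted p = 1.52e-04; named after its values were seen). Each of these 5 genes moved the same way in 6 of 6 birds.

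Genes of glucose use were likewise split. Of 24 tested, 7 rose and 10 fell, or 29.2% and 41.7% beside 32.9% and 32.6% over all genes. Their median log2 change was -0.12, and by library totals 5 rose and 14 fell. HK2, a hexokinase, rose 1.89-fold to 76.9 ± 11.3 CPM in F5, against 40.7 ± 6.29 CPM in Pre-recruitment follicles (edgeR adjusted p = 1.01e-05). The enolase ENO2 rose 2.74-fold to 3.26 ± 0.498 CPM in F5, against 1.18 ± 0.21 CPM in Pre-recruitment follicles (edgeR adjusted p = 5.48e-06). Their more abundant relatives HK1 and ENO1, named after their values were seen, fell. HK1 averaged 220 CPM in F5 and 287 CPM in Pre-recruitment follicles (edgeR adjusted p = 2.43e-05). ENO1 averaged 1113 CPM in F5 and 1619 CPM in Pre-recruitment follicles (edgeR adjusted p = 1.41e-05). SLC2A1, the glucose transporter GLUT1, rose 1.47-fold (edgeR adjusted p = 5.23e-04) and the lactate dehydrogenase LDHA 1.74-fold in 5 of 6 birds (edgeR adjusted p = 0.00281), both named after their values were seen. PDK1, a kinase that keeps pyruvate out of mitochondria and a classic target of HIF1A in mammals, fell 1.66-fold to 120 ± 6.63 CPM in F5, against 200 ± 19.7 CPM in Pre-recruitment follicles (edgeR adjusted p = 6.41e-07).

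Other targets of the pathway divided by gene. Of 35 tested, 14 rose and 11 fell, or 40% and 31.4% beside 32.9% and 32.6% over all genes. By library totals 11 rose and 15 fell. Of the 4 genes named by rule, LOX, which crosslinks collagen, rose 4.35-fold and PLOD2, a lysyl hydroxylase of collagen, rose 2.24-fold (edgeR adjusted p = 5.07e-08). LOX stood at 76.0 ± 12.9 CPM in F5 and 17.5 ± 3.35 CPM in Pre-recruitment follicles (SD, n = 6 each; edgeR adjusted p = 3.93e-08). NDRG1, a stress-induced gene with strong hypoxic induction in mammals, fell 3.03-fold to 44.6 ± 8.24 CPM in F5, against 135 ± 10.7 CPM in Pre-recruitment follicles (edgeR adjusted p = 5.02e-08). VLDLR, a target of the pathway that in the hen is also the oocyte's receptor for yolk precursors, fell 9.51-fold (edgeR adjusted p = 5.62e-08), in the libraries where oocyte markers fell. VEGFA, the vascular growth factor, named after its values were seen, measured 39.5 ± 5.23 CPM in F5 and 47.4 ± 7.32 CPM in Pre-recruitment follicles. It was lower in F5 in 5 of 6 birds with an edgeR adjusted p of 0.0496, and it missed the threshold in 13 of 24 alternative fits. These were the fit with no low-count filter (edgeR adjusted p = 0.0533), those without bird 5802 (0.222), 5817 (0.144), 5826 (0.0566) or 5840 (0.0699), and those without the F5 library of bird 5802, 5810, 5817, 5826 or 5840 or the Pre-recruitment library of bird 5802, 5817 or 5826 (0.0511 to 0.112).

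**Figure D4:**
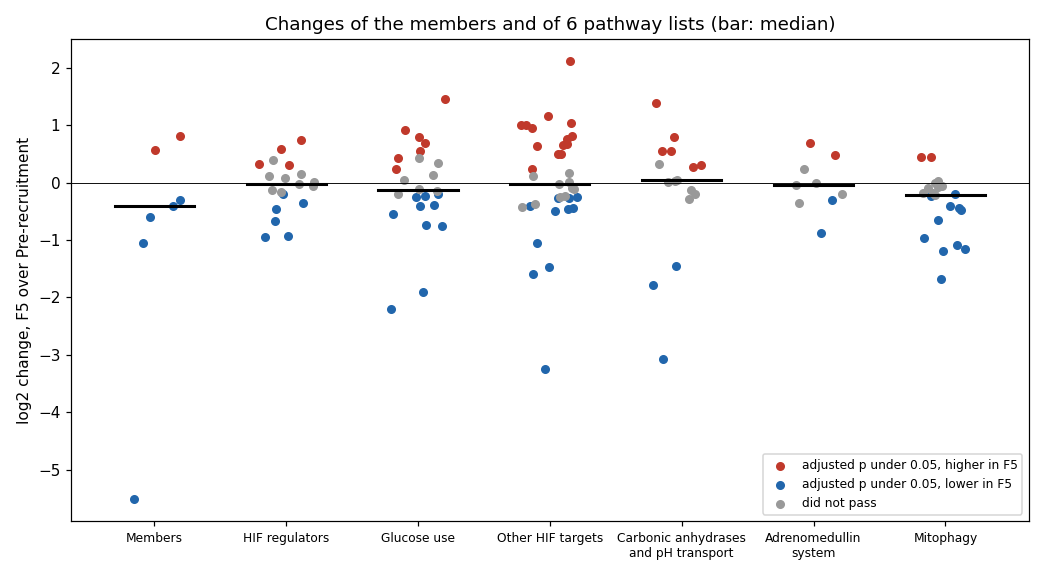
Log2 change of F5 over Pre-recruitment (vertical axis) for the 7 members and for the tested genes of 6 pathway lists, a point for each gene, coloured by call, with a black bar at the median. List medians lie between -0.22 (mitophagy) and 0.04 (carbonic anhydrases and pH transport), and CA9 is the lowest point at -5.51.

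CA9, selected on this contrast, was 1 of 4 carbonic anhydrase genes called lower in F5, and the family did not move together. Among the 16 genes tested for carbonic anhydrases and acid transport besides CA9, 6 rose and 3 fell. These were 37.5% and 18.8%, beside 32.9% and 32.6% over all genes, and by library totals 4 rose and 3 fell. The 3 that fell with TMM scaling were all of the carbonic anhydrase family. CA10, a member that lacks catalytic activity, fell 3.44-fold to 50.3 ± 9.12 CPM in F5, against 173 ± 16.8 CPM in Pre-recruitment follicles (edgeR adjusted p = 2.82e-08). CA8, also inactive as an enzyme, fell 2.74-fold (edgeR adjusted p = 4.91e-05), and the cytosolic enzyme CA7, named after its values were seen, averaged 0.577 CPM in F5 and 4.78 CPM in Pre-recruitment follicles (edgeR adjusted p = 5.10e-04). CA4, which like CA9 acts outside the cell, rose 2.63-fold, to 41.3 ± 10.7 CPM in F5 against 15.7 ± 5.76 CPM in Pre-recruitment follicles (SD, n = 6 each; edgeR adjusted p = 3.26e-04), higher in 6 of 6 birds.

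**Figure D5:**
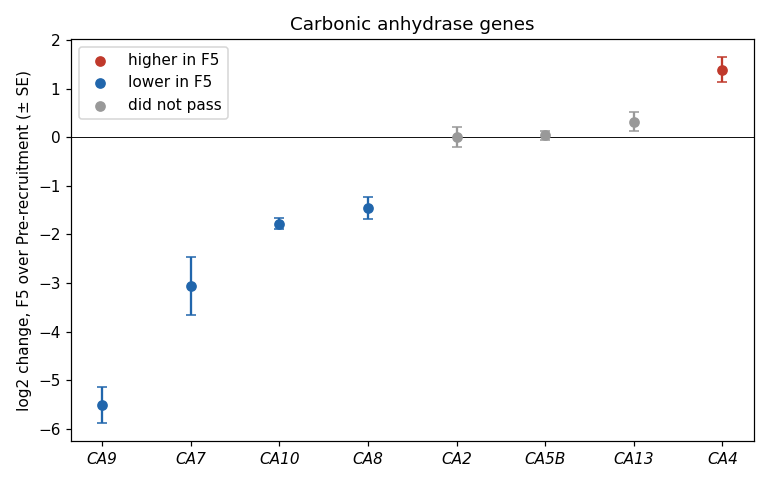
Log2 change of F5 over Pre-recruitment with its standard error (vertical axis) for the 8 carbonic anhydrase genes that passed the low-count filter. CA9, CA7, CA10 and CA8 were lower in F5, CA4 was higher at 1.39, and CA2, CA5B and CA13 did not pass.

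The receptor system of adrenomedullin, a vasodilator peptide induced by hypoxia in mammals, had 2 risers and 2 fallers of 9 tested. These were 22.2% each, beside 32.9% higher and 32.6% lower over all genes, and by library totals there were 1 riser and 4 fallers. CALCRL, the receptor protein of this system, rose 1.61-fold (edgeR adjusted p = 0.00106). It had 33.7 ± 9.60 CPM in F5 and 20.9 ± 1.89 CPM in Pre-recruitment follicles. RAMP1, an accessory protein that sets the receptor's ligand preference, rose 1.39-fold (edgeR adjusted p = 0.0286) and was higher in 5 of 6 birds, but missed the threshold in 10 of 24 alternative fits. These were library totals (edgeR adjusted p = 0.188), the fits without bird 5826 (0.124), 5835 (0.0805) or 5840 (0.0785), and those without the F5 library of bird 5810, 5826 or 5835 or the Pre-recruitment library of bird 5826, 5835 or 5840 (0.0512 to 0.0708). The accessory proteins RAMP2 and RAMP3, named after their values were seen, did not pass. Their log2 changes were 0.24 for RAMP2 (edgeR adjusted p = 0.164) and -0.01 for RAMP3 (edgeR adjusted p = 0.935). CALCA, which encodes calcitonin and its gene-related peptide, fell 1.83-fold (edgeR adjusted p = 0.00349). PAM, an enzyme that amidates peptide hormones, fell 1.23-fold (edgeR adjusted p = 0.0052). With the bird as a block, 4 genes fell.

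Mitophagy genes, the list around BNIP3, fell more often than they rose. Of 21 tested, 11 fell and 2 rose, or 52.4% and 9.52% beside 32.6% and 32.9% of all genes. Their median log2 change was -0.22. By library totals 19 fell and 2 rose, or 9.52% higher among those called, beside 28.5% over all genes called with that scaling. MAP1LC3C, an LC3 protein of the autophagosome, fell 3.21-fold to 34.7 ± 4.12 CPM in F5, against 111 ± 19.8 CPM in Pre-recruitment follicles (edgeR adjusted p = 4.31e-08). The cargo receptor SQSTM1 fell 2.3-fold (edgeR adjusted p = 2.13e-07), the mitochondrial receptor BCL2L13 2.12-fold (edgeR adjusted p = 3.11e-06) and PINK1, the kinase that flags damaged mitochondria, 1.95-fold (edgeR adjusted p = 1.25e-06). These 4 genes were lower in F5 in 6 of 6 birds.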

How the data were processed

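Messenger RNA of 12 follicle libraries was sequenced as paired 100 bp reads after poly-A selection, per the labels' protocols. The authors deposited unnormalised expected counts for each gene symbol, estimated with kallisto 0.44.0 per the submitters' processing notes. Those notes also name bcl2fastq 2.19, DESeq2 1.38.3, DESeq 0.99.484 and the builds GRCg6a and galGal6. No source used here says how transcript values were joined into genes, and kallisto shares the reads of near-identical transcripts by estimation. All values were whole numbers, so rounding changed none. A row with a blank name, 6.6% ± 0.216 of counts in F5 and 9.02% ± 0.515 in Pre-recruitment libraries (SD, n = 6), was left out.

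Counts were analysed in R 4.3.3 with edgeR 4.0.16 (filterByExpr by stage, minimum count 10, TMM, robust quasi-likelihood test, Benjamini-Hochberg adjustment over all 11195 genes tested, code checked on simulated counts). Stage was the only term. CPM values are TMM-scaled. A prior count of 2 entered log2 CPM. SEs were derived from the log2 change and its F statistic. Alternatives were library totals, RLE scaling, other filters, DESeq2 1.42.0, the bird as a block, and leaving out each bird or library. The 2 follicles of a bird come from 1 animal, per the labels. After removal of the stage means they correlated over all tested genes at 0.129 to 0.388, against -0.298 to 0.302 between birds. In 5 of 6 birds the F5 follicle correlated best with the Pre-recruitment follicle of the same bird. Libraries of 1 stage differed beyond counting noise, with a chi-square per degree of freedom of at least 23.8.

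Members and lists were chosen with earlier results of these data known. Named genes are the members, up to 4 tested genes with the smallest adjusted p from each of 6 pathway lists, and the 5 genes most like CA9; others are said to be named after their values were seen. Some genes that this rule names are not reported here. Another 9 lists hold cell type markers and handling genes.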

Additional observations from a re-analysis of the deposited data

How the results depend on the processing

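The members were selected on the stage contrast, so their log2 changes over 24 alternative fits are a description. CA9 ran from -5.99 to -5.33, HIF1A from 0.34 to 0.61, EPAS1 from 0.59 to 0.90, ARNT from -0.54 to -0.28, EGLN3 from -1.28 to -0.93, HIF1AN from -0.84 to -0.57 and BNIP3 from -0.63 to -0.34. The paired fit with the bird as a replicate block called 7711 genes, of which 7233 were shared with the 7333 called without it. It called 4 adrenomedullin system genes lower in place of 2. Library totals alone left 2071 genes higher in place of 3681, with 2 regulators higher and 10 lower, 19 mitophagy genes lower, and 1 adrenomedullin system gene higher and 4 lower. They also turned the correlation of ARNT between the follicles of a bird to 0.58 from -0.26, and neither passed. For CA9 that scaling gave rho = 0.89 (exact permutation p = 0.0333, adjusted p = 0.233). Without the 2 birds farthest from the median, r turned to -0.15 from 0.37 for HIF1A and to -0.28 from 0.46 for HIF1AN. For ARNT it turned to 0.63 from -0.20. The birds left out changed with the scaling for HIF1A and ARNT. The cause was not tested. Leaving out a bird or a library gave 1 to 2 adrenomedullin system genes higher. Among the other pathway genes named and called, HK1 and ENO1 were not followed over the alternatives. Of the rest, RAMP1 and VEGFA lost their call under some alternatives and the others under none. Low counts limit the precision of EGLN3 in both stages and of CA9 and CA7 in F5.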
